A study of Mus musculus with 3 samples.

Results

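The class 3 semaphorins, a family of secreted guidance proteins, and the receptors they act through were followed in sorted cells of the mouse molar. The set held 9 genes: the ligands Sema3a, Sema3b, Sema3c, Sema3d, Sema3e and Sema3f, the co-receptors Nrp1 and Nrp2, and the receptor Plxnd1. They were looked up by symbol in the gene tables of 3 libraries and joined by gene identifier, and 9 of 9 were found among the 21446 genes that the libraries share. The set was chosen by gene family with earlier results of these libraries in view, among them the UMI levels of Sema3e, which had already set cementoblast types apart, so the difference of Sema3e between the Ifitm5 and Ibsp gates is given below as a description, without a test.

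Cells came from mandibular molars of Pthrp-mCherry knock-in mice, in which a red fluorescent reporter marks cells that express the gene for parathyroid hormone-related protein. Cells pooled from mandibles were sorted for mCherry and profiled by 3′ single-cell RNA sequencing at P15, P25 and 8 weeks, with 1 library for each age. The same allele was carried at each age, the labels give no other allele or agent, and the number of animals behind a pool is not given in the sources used here. The libraries held 12926, 8971 and 5192 cells with medians of 14253.5, 15834 and 8712.5 unique molecular identifiers (UMIs, counts of captured transcripts) per cell at P15, P25 and 8 weeks, and 13 to 26 cell barcodes were shared by a pair of libraries. According to the file headers, P25 was counted with Cell Ranger 6.0.1 and a larger gene reference and the other libraries with 6.1.2, so software and reference cannot be told apart from age at P25. With 1 library per age, no difference between ages was tested.

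Cells were put into gates by the UMIs of a single gene, so that the semaphorin genes played no part in the grouping. A cell needed at least 2 UMIs of the gate gene and a minimum per 10000 of its UMIs: 3 for Ifitm5, a mature osteoblast-type gene of cellular cementum, 20 for Ibsp, the bone sialoprotein gene of cementoblasts, 2 for Hand2, a transcription factor gene of mesenchyme, 3 for Pappa2, 10 for the mural gene Rgs5, 2 for the endothelial gene Pecam1 and 10 for the keratin gene Krt14. A gate on the leukocyte gene Ptprc served as background. The gates took 11135 of 27089 cells, 41.1%, and 293 further cells past several incompatible cuts were left out. The Ifitm5 gate held 471, 725 and 256 cells at P15, P25 and 8 weeks, the Ibsp gate 1381, 1671 and 1334, the Hand2 gate 178, 267 and 205 and the Krt14 gate 1927, 1016 and 145. The Pappa2, Rgs5 and Pecam1 gates held 291, 197 and 160 cells at P15 but no more than 11 cells each at the later ages. The 6 epithelial markers and the 6 endothelial markers on the lists were at their highest in the Krt14 and Pecam1 gates in all 3 libraries. In the Ifitm5 gate this held for 5 of 7 markers and in the Hand2 gate for 4 or 5 of 5, whereas in the Ibsp gate it held for only 2 or 3 of 7, so that gate is called by its gene. The Rgs5 gate had the highest level of 6 of 7 mural markers at P15, but of 3 and 2 of them in the small gates of P25 and 8 weeks.

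Class 3 semaphorins are best known for steering growing axons and vessels. Most of them bind a neuropilin, which passes the signal on through a plexin, whereas Sema3e can bind Plexin D1 without a neuropilin. Neuropilins also bind vascular endothelial growth factors, and in mineralized tissues semaphorins are known to act on nerves, vessels, osteoblasts and osteoclasts. The ligand genes lie in a pair of clusters on the mouse genome. In GENCODE M21 coordinates on GRCm38, Sema3d (chr5:12383385-12588948), Sema3a (chr5:13125414-13602565), Sema3e (chr5:14025276-14256689) and Sema3c (chr5:17574281-17730268) follow each other on the plus strand, and Sema3b (chr9:107597674-107609229) and Sema3f (chr9:107681500-107710475) are neighbours on the minus strand. The receptor genes stand alone, Nrp1 at chr8:128358604-128503363 and Nrp2 at chr1:62703285-62818695 on the plus strand and Plxnd1 at chr6:115954811-115995005 on the minus strand. No shared gene overlapped a member on the same strand, and 1 gene of the larger P25 reference overlapped Sema3e and 1 Nrp2 on the other strand.

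Levels are UMIs of a gene per 1000000 UMIs of shared genes in a gate (CPM), with exact Poisson 95% intervals, and shares of cells carry exact Clopper-Pearson 95% intervals. Both intervals cover counting error only. Log2 ratios within a library carry a pseudocount of 1 CPM, which makes them smaller in size where a level is low. Transcripts differ in how well their 3′ ends are captured, so levels are compared between gates and ages and not between genes.

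Sema3e, the ligand of Plexin D1, had its highest level in the Ifitm5 gate. Its level there in the P15 library was 38.1 CPM (34.1 to 42.4), against 55.9 (52.6 to 59.3) in P25 and 68.3 (59.5 to 78.0) in the 8-week library. In the Ibsp gate it was 0.836, 1.64 and 6.01 CPM. The lowest library of the Ifitm5 gate thus stood above the highest of the Ibsp gate, and the remaining gates with at least 20 cells had 3.14 CPM or less. The Ifitm5 gate was 3.64%, 8.08% and 4.93% of the cells of the 3 libraries but held 25%, 72% and 39.3% of all their Sema3e UMIs. Cells in no gate held a further 66.1%, 18.8% and 47.5% of these UMIs, at 7.98, 3.42 and 9.77 CPM. On sums per library and gate, edgeR gave a log2 fold change of 4.54 ± 0.83 (SE, n = 3 libraries in each gate) for Ifitm5 over Ibsp. The log2 ratios within the 3 libraries were 4.47, 4.75 and 3.49. With Ibsp levels this near the pseudocount of 1 CPM, these ratios are smaller in size than those of the levels themselves.

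**Figure D1:**
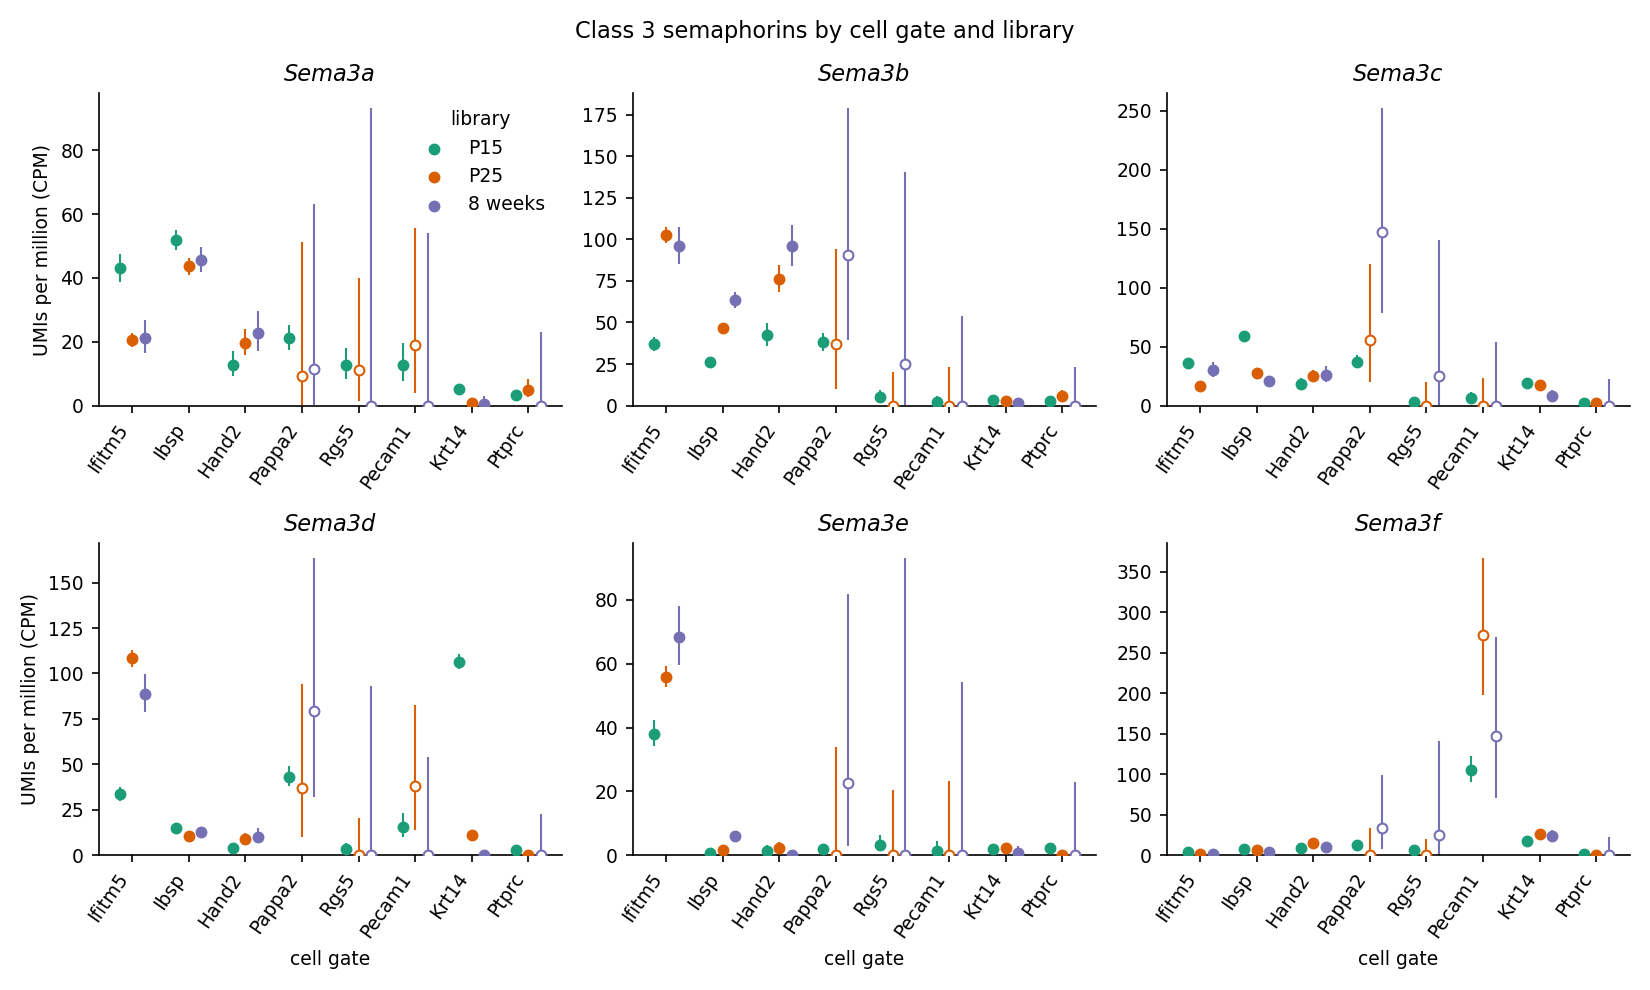
Levels of the 6 ligand genes (y axis, CPM, with a scale for each panel) in 8 cell gates (x axis) at P15, P25 and 8 weeks, with bars for exact Poisson 95% intervals and open markers for gates under 20 cells. Sema3e stands above its other gates in the Ifitm5 gate, Sema3f in the Pecam1 gate, and Sema3d in the Krt14 gate of P15 and in the Ifitm5 gate of P25 and 8 weeks.

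Thinned to 3000 UMIs per cell, 9.23% (6.76 to 12.2) of the Ifitm5-gated cells of P15 held a Sema3e UMI, 13.3% (10.9 to 16.0) of those of P25 and 14.3% (10.2 to 19.3) of those of 8 weeks. Without thinning the shares were 28.0%, 47.3% and 28.5%, at median depths of 17213, 22705 and 11120 UMIs. In the leukocyte gate, taken as background, the thinned share was 0.319% at P15 (0.0387 to 1.15), at a median depth of 9580 UMIs. Among the 171 cells of P25 it was 0%, with an upper limit of 2.13%, at a median depth of 14527.5.

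Within the Ifitm5 gate, Sema3e went with cells low in Ibsp. Ifitm5-gated cells under the Ibsp cut held 93.0, 84.4 and 135 CPM of Sema3e at P15, P25 and 8 weeks, against 5.41, 38.9 and 48.4 CPM in those past it. The gap was widest at P15, where 160 cells under the cut carried 307 of the 337 Sema3e UMIs. Sema3d was level at P15, with 33.9 CPM under and 33.2 past the Ibsp cut, and was also higher under the cut at P25 (121 against 101) and 8 weeks (127 against 77.6). Dspp, a marker gene of odontoblasts, was also higher under the Ibsp cut at P15 and P25, at 67.3 and 39.7 CPM against 25.4 and 2.27. At 8 weeks it was 0 CPM on both sides. When the cells with any Dspp UMI were removed, Sema3e in the whole Ifitm5 gate was 37.7, 55.6 and 68.3 CPM. The removal could change nothing at 8 weeks, and it leaves in odontoblasts without a captured Dspp UMI. The part of odontoblasts in the Sema3e levels was not tested.

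In the Ibsp gate of 8 weeks, 68 of the 69 Sema3e UMIs lay in cells under the Hand2 cut, at 9.94 CPM against 0.216 CPM in those past it.

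The level of Sema3e also went up along Ifitm5 itself, in bins that left out cells past the Rgs5, Pecam1, Krt14 or Ptprc cut. In cells without an Ifitm5 UMI it was 5.61, 1.82 and 5.78 CPM in the 3 libraries, and in cells with 6 to 12 Ifitm5 UMIs per 10000 it was 28.0, 61.3 and 71.7. From 12 UMIs upward it was 74.7 CPM at P15, the highest bin of that library, but 58.9 and 57.4 CPM at P25 and 8 weeks, where it had levelled off. From 1 to 3 UMIs per 10000, below the cut, it was 18.5, 29.98 and 50.1 CPM, and from 3 to 6, past it, 18.7, 43.2 and 71.5. In the few cells within 1.5-fold of the cut that had at least 2 Ifitm5 UMIs and passed no other cut, 9 to 30 on a side, it was 81.9, 43.9 and 115 CPM inside and 74.5, 60.6 and 140 CPM outside.

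**Figure D2:**
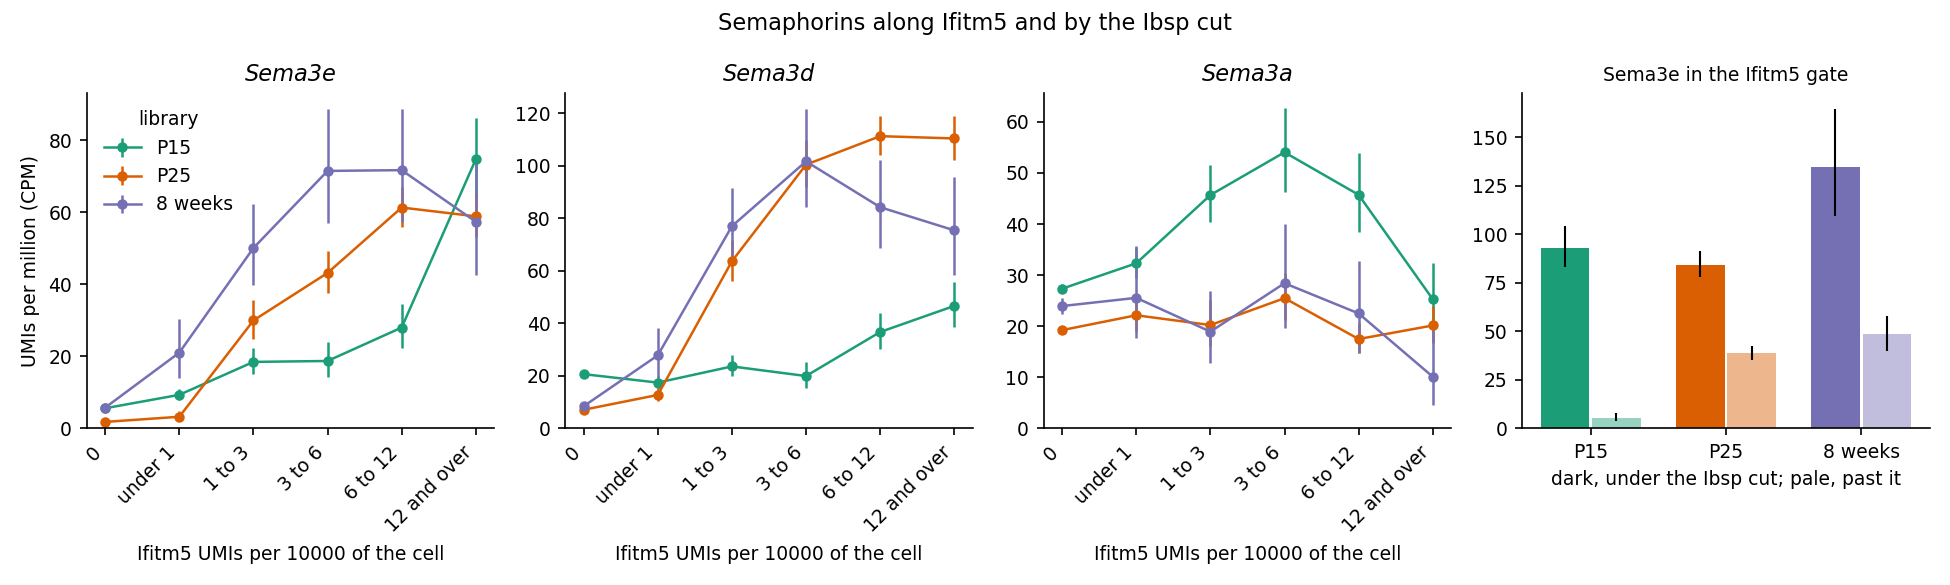
Sema3e, Sema3d and Sema3a (y axis, CPM) in bins of the Ifitm5 UMIs per 10000 of a cell (x axis), and Sema3e in Ifitm5-gated cells under (dark) and past (pale) the Ibsp cut, for P15, P25 and 8 weeks with exact Poisson 95% intervals. The bins leave out cells past the Rgs5, Pecam1, Krt14 or Ptprc cut. Sema3e is above 15 CPM in each library from 1 Ifitm5 UMI per 10000 upward, and in each library its bar under the Ibsp cut is the higher one.

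Sema3d, a ligand known from vessel and heart patterning, was highest in epithelium at P15 and in the Ifitm5 gate at the later ages. In the Krt14 gate it was 106 CPM (102 to 111) in the P15 library, 10.9 (9.69 to 12.2) in P25 and 0 (0 to 1.93) in the 8-week library, from 2457, 289 and 0 UMIs. In the Ifitm5 gate it was 33.5, 108 and 88.8 CPM, so the order of the gates at P15 was the opposite of that at P25 and 8 weeks. The Ibsp gate, at 15.1, 10.7 and 12.6 CPM, and the Hand2 gate, at 3.95, 9.02 and 10.2 CPM, stayed below the Ifitm5 gate in each library. The 291 cells of the Pappa2 gate at P15 held 43.3 CPM (37.9 to 49.2), more than the Ifitm5 gate of that age. At P15 the Krt14 gate held 42.5% of the Sema3d UMIs of the library and the Ifitm5 gate 5.12%, and at P25 these shares were 8.36% and 59.5%. At 8 weeks they were 0% and 36.6%, with 18.9% in the Ibsp gate. Cells in no gate held 40.4%, 21.9% and 40.4% of the Sema3d UMIs of P15, P25 and 8 weeks.

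Within the epithelium, Sema3d lay in cells of moderate Krt14. Among cells past no other cut at P15 it was 12.05 CPM under 3 Krt14 UMIs per 10000, 169 from 3 to 10, 432 from 10 to 20, 216 from 20 to 50, 70.5 from 50 to 100 and 27.0 from 100 upward. At P25 the peak lay in the same bin, at 147 CPM, with 4.97 CPM in the highest bin. Krt5, the keratin that pairs with Krt14, kept going up along the same bins, from 633 to 5693 CPM between the 10 to 20 bin and the highest at P15. The Krt14 cut at 10 ran through this peak. Just inside and just outside it, within 1.5-fold and past no other cut, Sema3d was 412 and 421 CPM at P15 and 157 and 175 CPM at P25. At 8 weeks 9 cells just inside held no Sema3d UMI and 4 cells just outside held 9, and the bin from 3 to 10 held 77.1 CPM from 17 UMIs. Odam, made by maturation-stage ameloblasts and junctional epithelium, moved with Sema3d in the Krt14 gate, at 4068, 636 and 142 CPM from P15 to 8 weeks, whereas Krt5 was 4030, 6099 and 6331. The part of this shift in epithelial cells in the Sema3d levels was not tested.

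**Figure D3:**
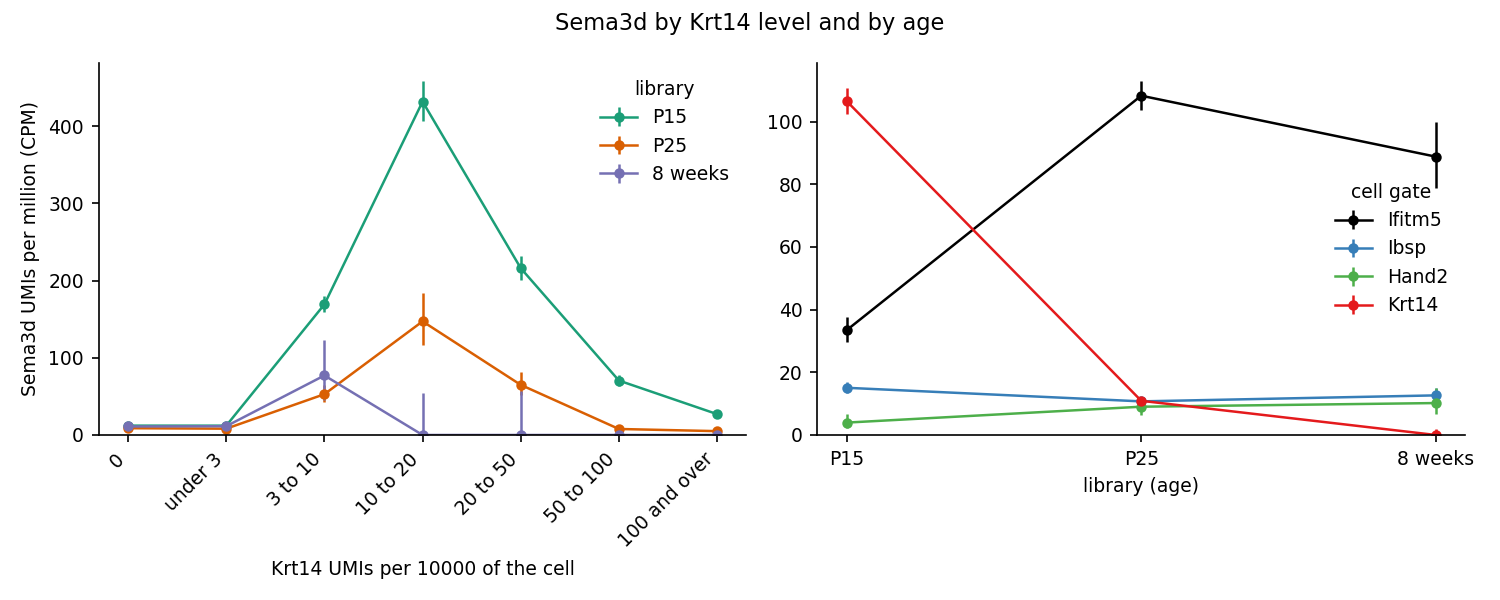
Sema3d (y axis, CPM, exact Poisson 95% intervals) by the Krt14 UMIs per 10000 of a cell (left) and by library in 4 gates (right). At P15 and P25 the level peaks from 10 to 20 Krt14 UMIs per 10000, and from P15 to P25 it goes from 106 to 10.9 CPM in the Krt14 gate and from 33.5 to 108 CPM in the Ifitm5 gate.

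Sema3b, which has been studied as a growth-restraining ligand, was a transcript of the mesenchyme that was higher at the later ages. It was 37.0, 103 and 95.8 CPM in the Ifitm5 gate, 26.2, 46.7 and 63.5 in the Ibsp gate and 42.6, 75.9 and 95.7 in the Hand2 gate. The Krt14 gate had 3.16, 2.49 and 1.57 CPM, so the epithelium did not overlap any of these gates. The ranges of the Ifitm5, Hand2 and Ibsp gates over the 3 libraries overlapped each other. Within each library, however, the Ifitm5 and Hand2 gates stood above the Ibsp gate. The log2 ratios at P15, P25 and 8 weeks were 0.56, 1.44 and 0.78 for Ifitm5 and 0.61, 0.62 and 0.51 for Hand2. Neither difference was called in the main fit described below.

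Sema3a, the best studied axon repellent and a known regulator of bone cells and of tooth innervation, was highest in the Ibsp gate. Its levels there were 51.8, 43.6 and 45.8 CPM at P15, P25 and 8 weeks. The Ifitm5 gate had 43.1, 20.5 and 21.2 CPM and the Hand2 gate 12.7, 19.6 and 22.8. The Ibsp gate cleared the Ifitm5 gate only narrowly, with 43.6 CPM in its lowest library against 43.1 in the highest of the Ifitm5 gate. Within P15 the log2 ratio of Ifitm5 to Ibsp was -0.18 (-0.35 to -0.01, counting error only). Between these gates Sema3a was called under 0 of 16 alternatives. The Ifitm5 and Hand2 gates overlapped each other. Within the Ifitm5 gate the order was the reverse of that of Sema3e, with 61.1, 25.4 and 24.2 CPM of Sema3a in cells past the Ibsp cut and 12.7, 12.1 and 11 CPM in those under it.

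Sema3c, which guides neural crest and vessels in the heart, was also highest in the Ibsp gate at P15, at 58.9 CPM. At P25 and 8 weeks it was 27.4 and 21.0 CPM there, within the range of the Ifitm5 gate, which held 35.9, 16.3 and 30.02 CPM. The Hand2 gate held 18.1, 24.9 and 26.1 CPM and the Krt14 gate 18.8, 17.1 and 8.39. Over the 3 libraries the Pappa2 gate ran from 37.1 to 147 CPM, with few cells at P25 and 8 weeks. Cells in no gate held 40.1%, 53.2% and 69.4% of the Sema3c UMIs of P15, P25 and 8 weeks. Their level ran from 14.3 CPM at P15 to 36.5 CPM at 8 weeks, where it was above the Ibsp, Ifitm5 and Hand2 gates. Neighbours in the order of mean levels, from Ibsp through Ifitm5 and Hand2 to Krt14, overlapped each time.

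Sema3f, a ligand that prefers Nrp2, was the one ligand whose highest level lay outside the mesenchymal gates in each library. In the Pecam1 gate it was 105 CPM (90.0 to 123) at P15, and the 7 and 6 cells of that gate at P25 and 8 weeks gave 273 (197 to 367) and 147 (70.4 to 270). The Krt14 gate followed with 17.2, 26.5 and 23.1 CPM and the Pappa2 gate of P15 with 12.8. Then came the Hand2 gate with 8.75, 14.96 and 9.78, the Ibsp gate with 7.67, 6.20 and 4.27 and the Ifitm5 gate with 3.39, 1.74 and 1.58. Among the Krt14, Hand2, Ibsp and Ifitm5 gates no neighbours in this order overlapped. Over the 3 libraries the Pappa2 gate ran from 0 to 34.0 CPM, with few cells at P25 and 8 weeks. Of the Sema3f UMIs of P15, P25 and 8 weeks, the Pecam1 gate held 10.7%, 2.47% and 3.64% and the Krt14 gate 25.3%, 40.4% and 16%. Cells in no gate held 42.1%, 40.6% and 50.5%. At P15, 26.8% (19.97 to 34.5) of thinned Pecam1-gated cells held a Sema3f UMI, against 0% of 627 cells in the leukocyte gate, with an upper limit of 0.587%.

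Nrp1, the co-receptor of Sema3a that also binds VEGF, was highest in the endothelial and mural gates at P15. The Pecam1 gate held 673 CPM (633 to 715) and the Rgs5 gate 550 (519 to 581) at P15, and their few cells at P25 and 8 weeks gave 894 and 382 and 177 and 126 CPM. The Hand2 gate had 40.3, 12.5 and 25.3 CPM, the Ibsp gate 20.5, 7.16 and 9.41, the Ifitm5 gate 10.4, 7.84 and 12.01 and the Krt14 gate 7.28, 3.36 and 2.10. The Ibsp gate overlapped both the Hand2 and the Ifitm5 gate. The Hand2 and Ifitm5 gates did not overlap each other, and neither did the Ifitm5 and Krt14 gates. Within libraries the log2 ratio of Ifitm5 to Ibsp was -0.84 at P15, 0.40 at P25 and 0.50 (-0.03 to 1.04, counting error only) at 8 weeks. Leukocytes were not free of it: the Ptprc gate held 136, 118 and 404 CPM, the last from 17 cells and above the Pecam1 gate of that age. The Pecam1 and Rgs5 gates are small and held 11.1% and 12.7% of the Nrp1 UMIs of P15 and no more than 3.55% each at the later ages. Cells in no gate held 54.99%, 74.3% and 87.9% of them, at 47.4, 36.3 and 91.6 CPM. In the Pappa2 gate, Nrp1 was 19.5 CPM in the 291 cells of P15 but 147 and 318 CPM in the 7 and 10 cells past the cut at P25 and 8 weeks.

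Nrp2, the co-receptor that Sema3f prefers and that also binds VEGF-C, was present in each gate and highest at P15 in the Pappa2 gate, at 475 CPM. It was 267, 261 and 500 CPM in the Ifitm5 gate, 313, 267 and 442 in the Hand2 gate and 321, 214 and 275 in the Ibsp gate, and these ranges overlapped. The Pecam1 gate of P15, at 282 CPM, lay among them. Within libraries the log2 ratio of Nrp2 in the Ifitm5 to the Ibsp gate changed sign, at -0.18 for P15, 0.61 for P25 and 1.06 for 8 weeks. The Krt14 gate was lower in each library, with 97.8, 58.2 and 56.1 CPM. Between 40.8% and 68.2% of thinned cells of the Ifitm5, Hand2 and Ibsp gates held an Nrp2 UMI, against 10.8% (8.52 to 13.5) of the leukocyte gate at P15 and 30.4% (23.6 to 37.9) at P25.

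Plxnd1, the receptor of Sema3e, was at its highest in the endothelial gate. The Pecam1 gate held 468 CPM (435 to 503) at P15 and 602 and 455 CPM in the few cells of P25 and 8 weeks, and the Rgs5 gate held 70.5, 88.6 and 75.7. The leukocyte gate, at 48.2, 67.5 and 49.7 CPM, stood above each mesenchymal gate of at least 20 cells. The Pecam1 gate, being small, held 16.2%, 2.96% and 3.41% of the Plxnd1 UMIs of the libraries. Cells in no gate held 57.6%, 73.8% and 77.9%, at 23.6, 29.2 and 26.5 CPM. The Pappa2 gate of P15 held 26.5 CPM, the Ibsp gate 13.8, 11.6 and 10.2, the Hand2 gate 8.18, 10.6 and 7.74, the Ifitm5 gate 6.44, 6.26 and 5.06 and the Krt14 gate 4.81, 2.26 and 1.05. The Ibsp and Hand2 gates overlapped, and the Hand2, Ifitm5 and Krt14 gates did not overlap in that order. Of the gates with at least 20 cells, Ifitm5 thus had the most Sema3e and, after Krt14, the least Plxnd1 in each library.

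**Figure D4:**
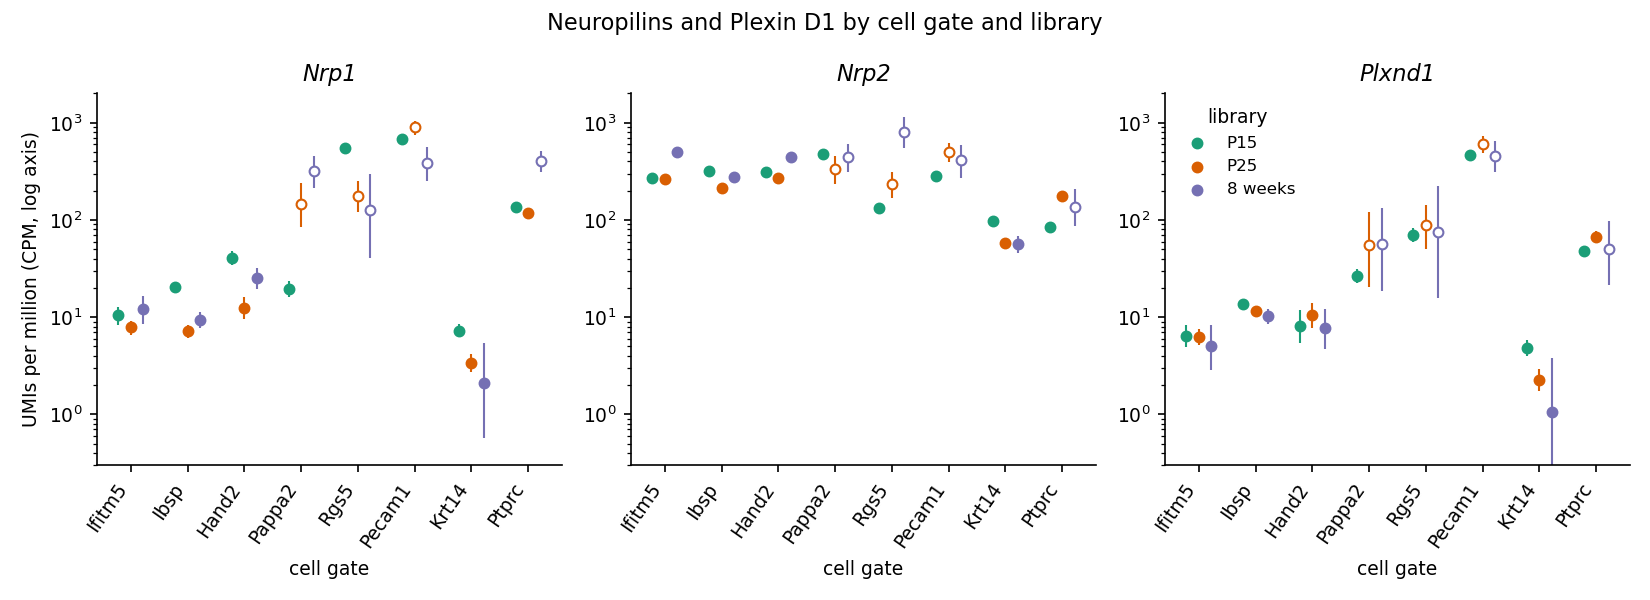
Levels of Nrp1, Nrp2 and Plxnd1 (y axis, CPM on a log axis) in 8 cell gates (x axis) at P15, P25 and 8 weeks, with bars for exact Poisson 95% intervals and open markers for gates under 20 cells. At P15 Plxnd1 is 468 CPM in the Pecam1 gate and 6.44 CPM in the Ifitm5 gate, while Nrp2 lies between 214 and 500 CPM in the Ifitm5, Ibsp and Hand2 gates of the 3 libraries.

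Differences between gates were tested with edgeR's quasi-likelihood test on 17 sums of library and gate, with Benjamini-Hochberg adjustment over 14241 genes, taking the 3 libraries as replicates of a gate. The ages of the libraries differ, so the spread holds age as well as technical error. The Pappa2, Rgs5 and Pecam1 gates had a single sum of at least 20 cells, that of P15, which was assumed to vary like the other gates, and their comparisons set P15 against a mean over ages. Of the 14241 genes, 0.829% were higher and 0.52% lower in the Ifitm5 than in the Ibsp gate, and with the library as a replicate block 2.19% and 1.61%. With or without the block 0 of the 8 members other than Sema3e passed. In the fit without it 4 of them had an unadjusted p under 0.05, and the DESeq2 Wald test called 0 as well. The largest value was that of Sema3d, higher in 3 of 3 libraries with a log2 fold change of 2.84 ± 1.06 (SE; adjusted p = 0.25). Sema3b followed at 1.03 ± 0.45 (adjusted p = 0.336), and on the lower side Sema3f had -1.22 ± 0.38 (adjusted p = 0.155) and Plxnd1 -0.77 ± 0.30 (adjusted p = 0.266), each in the same direction in 3 of 3 libraries. Sema3b was called without the P15 library (log2 fold change 1.13, adjusted p = 0.0316) and Sema3d was called when the fit held only the sums of these gates (2.85, adjusted p = 0.0396). No gene of all those tested was called without P25, with 823 at an unadjusted p under 0.05, and 1 was called without 8 weeks.

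Between the Hand2 and Ibsp gates, 0 of 9 members passed, where 0.239% of genes were higher and 0.941% lower in the Hand2 gate. With the library as a replicate block these shares were 0.73% and 1.66% and again 0 members passed. With unadjusted p under 0.05 there were 2 members, and the DESeq2 Wald test called 0. Of the 754 and 690 cells past the Hand2 cut at P25 and 8 weeks, 487 and 485 were outside the Hand2 gate, mostly in the Ibsp gate. With cells past several cuts left out, 0 members passed and 4 had an unadjusted p under 0.05 (edgeR). Sema3a was lower in the Hand2 gate in 3 of 3 libraries, with a log2 fold change of -1.43 ± 0.50 (SE; edgeR adjusted p = 0.289). It was called without P15 (-1.16, adjusted p = 0.038) and with the sums of these gates alone (adjusted p = 0.0215). Nrp1 had 0.99 ± 0.47 (adjusted p = 0.485) and Sema3f 0.82 ± 0.36 (adjusted p = 0.432), both higher in the Hand2 gate in 3 of 3 libraries.

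Between the Pappa2 gate of P15 and the Ibsp gate, 0 of 9 members passed as well, with 0.0492% of genes higher and 0.0913% lower (0.162% and 0.197% and 0 members with the replicate block). Here 2 members had an unadjusted p under 0.05, and the DESeq2 Wald test called 0. Plxnd1 had a log2 fold change of 1.18 ± 0.38 (SE; edgeR adjusted p = 0.327) and Sema3f one of 1.10 ± 0.48 (adjusted p = 0.571). Within P15 their log2 ratios were smaller, at 0.94 and 0.71. When sums of at least 5 cells were used, which gave the Pappa2 gate its P25 and 8-week cells, Plxnd1 was the 1 member called (1.52, adjusted p = 0.0355), with 0.524% of genes higher and 0.297% lower.

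In the Rgs5 gate against the mean of the Ifitm5, Ibsp, Hand2 and Pappa2 gates, 2 of 9 members were higher and 2 lower, against 4.27% and 1.19% of all genes (4.53% and 1.47% with the replicate block, which called as many members). The receptors Nrp1 and Plxnd1 were higher, by log2 fold changes of 4.88 ± 0.47 (SE; edgeR adjusted p = 7.56e-05) and 2.37 ± 0.32 (adjusted p = 0.000825). The ligands Sema3b and Sema3c were lower, at -3.63 ± 0.86 (adjusted p = 0.0288) and -3.72 ± 0.79 (adjusted p = 0.0156). Nrp1 and Plxnd1 were called under all 15 alternatives, and within the P15 library their log2 ratios were 4.48 and 2.27. All 15 alternatives rest on P15 cells of the Rgs5 gate, which could not be fitted without that library. Within P15 the log2 ratios of Sema3b and Sema3c were -2.68 and -3.41. The calls of both ligands were lost without the P25 library, with adjusted p of 0.177 for Sema3b and 0.108 for Sema3c, that of Sema3b also without 8 weeks (adjusted p = 0.0994) and with only the compared gates (adjusted p = 0.0578), and that of Sema3c also at a higher cut (adjusted p = 0.0537). Nrp2, at -1.64 ± 0.46, did not pass the threshold (adjusted p = 0.0615) and was called under 4 of 15 alternatives. Its log2 fold change ran from -2.11 to -0.26 over the alternatives. With the few cells of P25 and 8 weeks included, Nrp2 in the Rgs5 gate ranged from 133 to 808 CPM, with a mean of 391.

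In the Pecam1 gate 3 of 9 members were higher and 2 lower than in the mesenchymal gates, against 10.8% and 6.31% of all genes (12% and 7.74% with the replicate block, and as many members). Plxnd1, Nrp1 and Sema3f were higher, by log2 fold changes of 5.02 ± 0.29 (SE; edgeR adjusted p = 6.05e-07), 5.08 ± 0.47 (adjusted p = 1.72e-05) and 3.64 ± 0.36 (adjusted p = 2.82e-05). Each was called under all 15 alternatives, and within P15 their log2 ratios were 4.89, 4.69 and 3.36. All 15 alternatives rest on P15 cells of the Pecam1 gate, which could not be fitted without that library. Sema3b was lower, at -5.22 ± 1.06 (adjusted p = 0.00518) from 3 UMIs in the gate, and Sema3c at -2.59 ± 0.71 (adjusted p = 0.0269) from 10 UMIs. Within P15 their log2 ratios were -3.83 and -2.53. That of Sema3b rests on 3 UMIs and carries the pseudocount of 1 CPM, so its size cannot be set against the edgeR value. Without P25 these calls were lost (adjusted p = 0.0505 and 0.0952), and that of Sema3c also at a higher cut (adjusted p = 0.0773).

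In the Krt14 gate, which had 3 sums, 1 of 9 members was higher and 6 lower than in the mesenchymal gates, but 26.1% of all genes were higher and 22% lower (28.8% and 24.9% with the replicate block, and as many members). Sema3f was the member that was higher, by a log2 fold change of 1.80 ± 0.28 (SE; edgeR adjusted p = 0.000263) and in 3 of 3 libraries. Sema3b, at -4.34 ± 0.51 (adjusted p = 4.11e-05), and Sema3a, at -3.36 ± 0.52 (adjusted p = 0.000286), were the ligands with the largest drop. The 3 receptors were lower too: Nrp2 at -2.25 ± 0.29 (adjusted p = 7.55e-05), Plxnd1 at -1.82 ± 0.28 (adjusted p = 0.000269) and Nrp1 at -1.70 ± 0.44 (adjusted p = 0.00716). Nrp1 was no longer called without 8 weeks (adjusted p = 0.0693) or at a lower cut (adjusted p = 0.0516). Sema3c, at -0.91 ± 0.34 (adjusted p = 0.0437), was called under 9 of 16 alternatives. It lost its call without any 1 of the libraries (adjusted p = 0.0864, 0.115 and 0.154 without P15, P25 and 8 weeks), without the filter on low counts (0.0504), at a higher cut (0.112), with cells past several cuts kept (0.0805) and without the highest Scrublet scores (0.0903). Sema3e had -1.19 ± 0.74 (adjusted p = 0.209). The mean of Sema3d, 0.76 ± 0.80 (adjusted p = 0.467), covers opposite values: the log2 ratio was 2.55, -0.92 and -4.56 in the P15, P25 and 8-week libraries, and without P15 the fold change was -1.49 (adjusted p = 0.11). The 8-week ratio comes from 0 UMIs in the Krt14 gate, so the pseudocount sets its size.

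**Figure D5:**
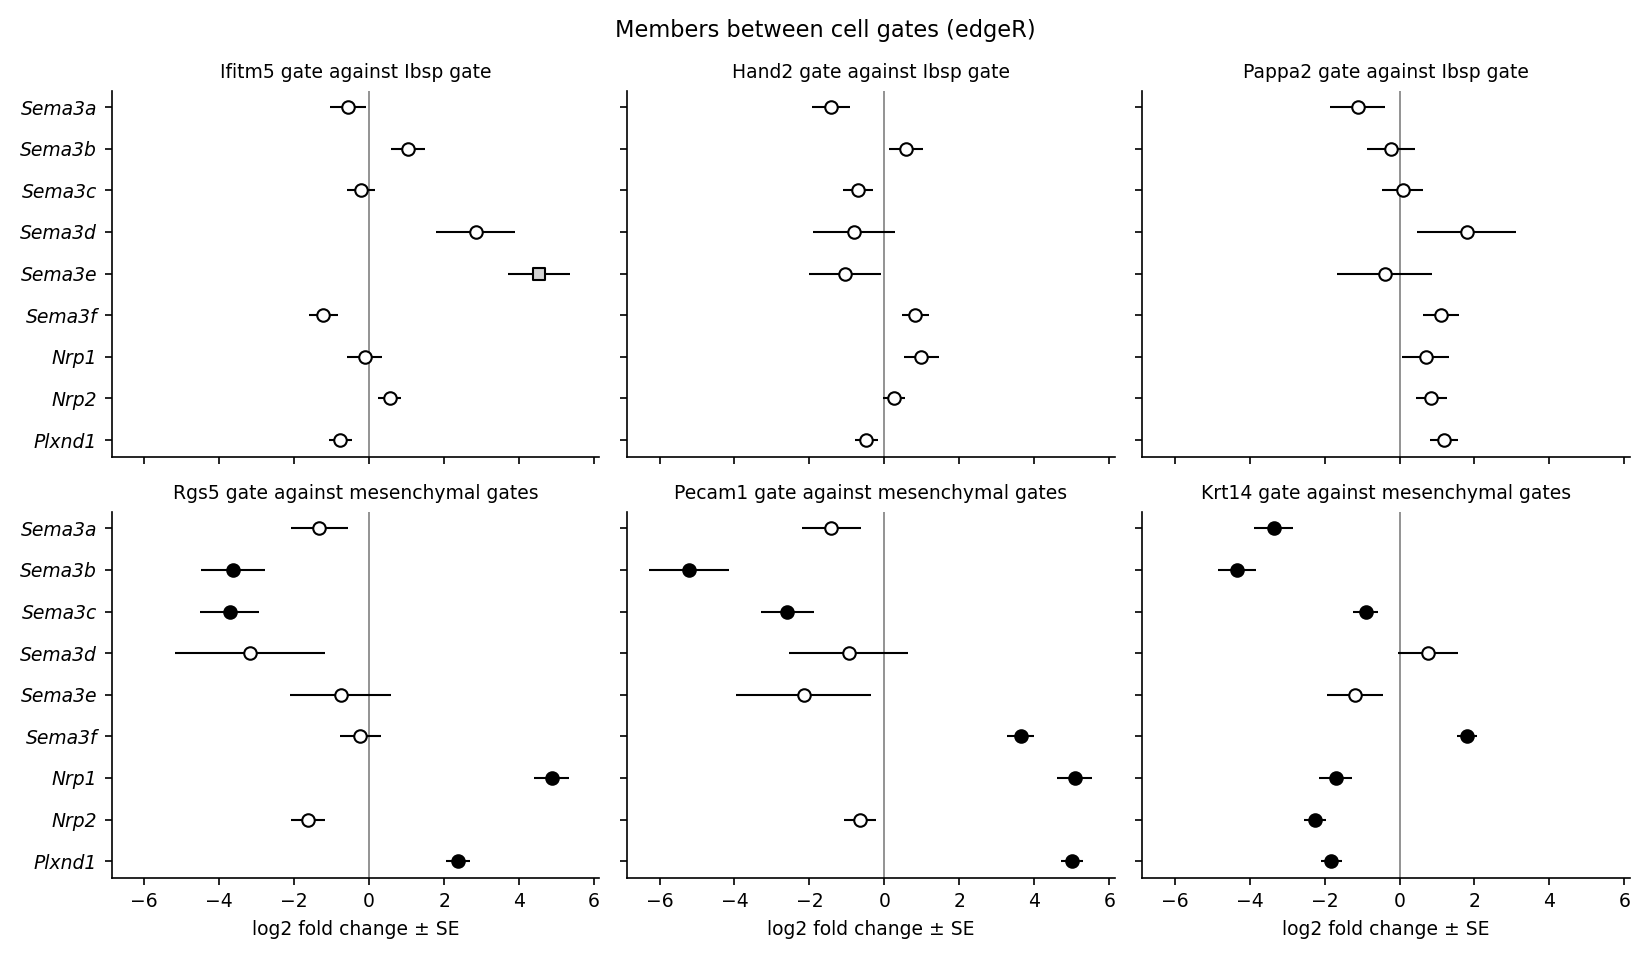
Log2 fold changes ± SE (x axis) of the 9 members in 6 comparisons of gates, in which filled circles have an adjusted p under 0.05, open circles do not, and the grey square is Sema3e, given as a description. The Pecam1 gate has 3 filled circles on the higher side (Sema3f, Nrp1 and Plxnd1), and the Krt14 gate has 6 on the lower side.

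Across ages, ratios were taken on sums scaled by TMM, which corrects for composition, and a member was counted as past 2-fold where the log2 ratio with a pseudocount of 1 CPM exceeded 1 in size and the counting interval of the ratio did not include 1. In the Ifitm5 gate 3 of 9 members passed this mark from P15 to 8 weeks, on the higher side, as did 3.66% of all genes, with 4.22% lower. Sema3d was 2.85 times as high (2.41 to 3.37), Sema3b 2.78 (2.37 to 3.27) and Nrp2 2.01 (1.89 to 2.15), while Sema3e was 1.93 times as high (1.62 to 2.29). For Sema3d and Sema3b the step lay between P15 and P25, with ratios of 4.02 and 3.45. For Nrp2 it lay between P25 and 8 weeks, at 1.65 (1.56 to 1.75).

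In the Ibsp gate 4 members passed, with 2.16% of all genes higher and 4.47% lower. Sema3e was 7.14 times as high (4.20 to 12.7) at 8 weeks as at P15, from 18 and 69 UMIs, where the Ifitm5 gate of 8 weeks held 216. The make-up of the Ibsp gate differed with age, with 30 of 1381, 479 of 1671 and 482 of 1334 cells past the Hand2 cut. In its cells under the Hand2 cut Sema3e was 0.857, 2.07 and 9.94 CPM, a wider gap than in the whole gate. Sema3b was 2.41 times as high. Sema3c and Nrp1 were lower, with ratios of 0.354 (0.307 to 0.407) and 0.455 (0.365 to 0.563). Both were low in the cells past the Hand2 cut, at 5.74 to 12.7 CPM for Sema3c and 0.755 to 2.37 CPM for Nrp1. Under the Hand2 cut Sema3c was 60.1 CPM at P15 and 26.6 at 8 weeks, still past 2-fold, but Nrp1 was 21.0 and 14.2 CPM, within 2-fold. These levels are CPM, whereas the ratios were scaled by TMM. The part of the gate's make-up in the ratios was not tested. Sema3a, with a ratio of 0.878, and Nrp2, with 0.850, stayed within 2-fold.

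In the Hand2 gate Sema3b and Sema3d passed, at 2.22 (1.80 to 2.74) and 2.54 (1.27 to 5.29), the latter from 14 and 25 UMIs, with 4.51% of all genes higher and 5.34% lower. In the Krt14 gate 5 members were past 2-fold, each on the lower side, where 11.8% of all genes were lower and 4.54% higher. Sema3d had 2457 UMIs at P15 and 0 at 8 weeks, for which the upper 95% limit of the ratio was 0.0184. That limit covers counting error only, and cells just under the Krt14 cut still held Sema3d UMIs at 8 weeks, as given above. Sema3a had a ratio of 0.105, Plxnd1 0.221, Nrp1 0.292 and Sema3c 0.452, from 1, 2, 4 and 16 UMIs at 8 weeks. Sema3f was not lower, with a ratio of 1.36 (0.971 to 1.86) whose interval includes 1. At P25 it was 1.74 times (1.54 to 1.98) the P15 level, and from P25 to 8 weeks the ratio was 0.778 (0.560 to 1.06).

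Lists of the genes that work with the members had few called genes among mesenchymal gates, where few genes of any kind were called. Of all genes, 0.829% were higher and 0.52% lower in the Ifitm5 than in the Ibsp gate. Against Ibsp these shares were 0.239% and 0.941% for the Hand2 gate and 0.0492% and 0.0913% for the Pappa2 gate. Of 23 tested effectors downstream of plexins and neuropilins, 2 were higher in the Ifitm5 than in the Ibsp gate and 0 lower: Mical3, an actin-oxidizing enzyme (log2 fold change 1.67, edgeR adjusted p = 0.0263), and Farp2, an exchange factor bound by class A plexins (1.41, adjusted p = 0.0261). Among the 23, 3 had an unadjusted p under 0.05 and the DESeq2 Wald test called 2. In the other 5 lists 0 genes passed, with 1 to 4 at an unadjusted p under 0.05, and the DESeq2 Wald test called at most 1 of a list. Of the 8 tested class A plexins and adhesion co-receptors, Chl1 was higher in the Hand2 than in the Ibsp gate (3.93, adjusted p = 0.0204), and of 14 other semaphorins Sema5a was lower (-2.97, adjusted p = 0.0018). In the Pappa2 gate 0 genes of the 6 lists passed edgeR's test, with 1 to 4 of a list at an unadjusted p under 0.05, and the DESeq2 Wald test called at most 1 of a list.

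In the vessel-type gates the lists stood against 4.27% of all genes higher and 1.19% lower for Rgs5, and 10.8% and 6.31% for Pecam1. Among the 14 other semaphorins, Sema5b and Sema6d were higher in the Rgs5 gate (log2 fold changes 7.40 and 3.69, edgeR adjusted p = 0.00314 and 0.0167), with a list median of 0.32 against -0.05 over all genes. Of 23 effectors 2 were higher there and 1 lower, with Rras, a small GTPase that plexins switch off, at 2.41 (adjusted p = 0.00048) and Mical3 at -2.13 (adjusted p = 0.035). In the Pecam1 gate Sema3g, the class 3 ligand outside the set, was higher by 6.67 (adjusted p = 0.000179), with Sema6d and Sema7a at 4.45 and 4.28 (adjusted p = 0.00203 and 0.0024). In all, 4 of the 14 were higher and 1 lower. Of 7 tested VEGF ligands and receptors, 4 were higher in the Pecam1 gate, the receptors Flt1, Kdr and Flt4 among them, and 1 was lower. Kdr and Flt1 also stood among the markers by which this gate was checked. The class A plexin Plxna4, a partner of Nrp1 for Sema3a, was higher there by 4.43 (adjusted p = 0.000663) and Plxna3 had -3.56 (adjusted p = 0.0283). Of 23 effectors 7 were higher and 3 lower, with a median of 0.28 against -0.05, and Rnd1, a GTPase that binds plexins, had 4.94 (adjusted p = 0.00034).

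In the Krt14 gate 26.1% of all genes were higher and 22% lower, and the shares of the lists are to be read against these. Of 8 class A plexins and co-receptors, Chl1 and L1cam were higher (5.14 and 4.34, edgeR adjusted p = 2.51e-05 and 0.000442) and Nrcam lower (-2.58, adjusted p = 0.023), with a list median of 0.50 against 0.07 over all genes. Plxnb1, a receptor of class 4 semaphorins, was higher by 3.003 (adjusted p = 9.4e-07), as was its family's ligand Sema4a by 2.68 (adjusted p = 8.37e-05), while Plxnc1 had -2.61 (adjusted p = 0.00576). Of the 14 other semaphorins 3 were higher and 2 lower, with Sema6a at -3.17 (adjusted p = 0.000214). Of 23 effectors 9 were lower and 3 higher, with a median of -0.58, led by Dpysl3, a collapsin response mediator (-3.17, adjusted p = 6.97e-06), and the kinases Fyn (-2.87, adjusted p = 0.000377) and Fes (-2.05, adjusted p = 0.00402). The convertases that cleave class 3 semaphorins were lower in 2 of 4 cases, Pcsk6 at -3.06 (adjusted p = 0.00251) and Pcsk5 at -1.67 (adjusted p = 0.00101), and 3 of 7 VEGF genes were lower.

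The genes whose levels went most closely with a member over the 17 sums were described by Pearson's r of log2(CPM + 1) among 9816 genes. The sums share libraries and cell types, so no test was made. For Sema3e they were Dtna (r = 0.94), the gate gene Ifitm5 (0.91) and Gsg1l (0.89), and for Sema3a Nfic, Robo2 and Sp9 (0.96 each). Plxnd1 and Nrp1 shared the gene Rnf125 (0.95 and 0.94). Sema3d had the loosest company, with Pdpn at 0.83, Slc13a5 at 0.81 and Irx3 at 0.80.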

How the data were processed

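For each of 3 libraries of Pthrp-mCherry+ molar cells (10x Chromium 3′, v3.1 chemistry), the authors deposited raw whole-number UMI counts of genes in cells, made with Cell Ranger. The file headers name version 6.1.2 for P15 and 8 weeks and 6.0.1 for P25, and the submitters' processing notes name 6.1.2 and mm10 for each. The annotation version is not given in the sources used here. The 21446 identifiers shared by the libraries held 99.7%, 95.2% and 99.8% of the UMIs of P15, P25 and 8 weeks, which totalled 188157997, 169712592 and 46234378. The members, gates and gene lists were chosen with earlier results of these data known.

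Every deposited cell was kept, possible doublets included. A cell past the Ifitm5 cut was in the Ifitm5 gate whatever its Ibsp, Hand2 or Pappa2, and one past the Ibsp cut took precedence over Hand2 and Pappa2. Cells past the Rgs5, Pecam1, Krt14 or Ptprc cut and another cut, or past the cuts of both Hand2 and Pappa2, entered no gate. UMIs were summed per library and gate of at least 20 cells, and the 17 sums were fitted with edgeR 4.0.16 in R 4.3.3 (TMM, filterByExpr, robust quasi-likelihood test, Benjamini-Hochberg adjustment per comparison, calls at 0.05). The libraries of a gate served as its replicates without a block. The deviations of sums of a library from their gate means correlated by 0.149 to 0.651 in 18 pairs of gates, so the library pairs the sums, and a fit blocked on the library was tried as well. DESeq2 1.42.0, other size factors, filters, cuts, cells and left-out libraries were further alternatives. Both tools were tested on simulated counts of the Ifitm5 and Ibsp gates, with the changed genes drawn from those of at least 20 CPM in the Ibsp gate. There edgeR recovered 31 of 100 genes changed 2-fold and 90 of 100 changed 4-fold, with 4 false calls. DESeq2 recovered 64 and 97, with 22 false calls. A 2-fold difference between these gates could thus often go uncalled. The mean Ibsp levels of Sema3d, Sema3e, Sema3f, Nrp1 and Plxnd1, from 2.83 to 12.8 CPM, lay below those of the changed genes. The recovery therefore does not cover these members. All members were named, and of each list at most the 3 called genes with the largest fold change.

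For shares of cells, each cell was thinned to 3000 UMIs, which left out 3499 of 27089 cells. Shared barcodes were counted between libraries, 26 between P15 and P25, 16 between P15 and 8 weeks and 13 between P25 and 8 weeks. Python 3.11.15, numpy 2.4.6, scipy 1.17.1, pandas 2.3.3, scanpy 1.11.5 (Scrublet) and matplotlib 3.10.9 were used. Gene positions were taken from GENCODE M21 on GRCm38.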

Additional observations from a re-analysis of the deposited data

Results flagged for a closer look

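Sema3d went in opposite directions in different libraries and gates. In the Krt14 gate against the mesenchymal gates its log2 ratio was 2.55, -0.92 and -4.56 in the P15, P25 and 8-week libraries. The last comes from 0 UMIs in the Krt14 gate, so the pseudocount of 1 CPM sets its size. The mesenchymal mean held 4 gates at P15, Pappa2 among them, and 3 at P25 and 8 weeks. From P15 to 8 weeks its log2 ratio, with a pseudocount of 1 CPM, was 1.49 in the Ifitm5 gate and 1.14 in the Hand2 gate, but -6.75 in the Krt14 gate. No Sema3d UMI was left in the Krt14 gate at 8 weeks, whereas cells just under its cut still held some. With 1 library per age, the difference of these values between ages, or of the change with age between gates, was not tested.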

How the results depend on the processing

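Of 821 fold changes of members under an alternative, leaving aside Sema3e between the Ifitm5 and Ibsp gates, 17 lost and 9 gained a call, 19 changed sign, and 0 of those that changed sign were called. The library as a replicate block left the numbers of members called as they were (0 of 8, 0, 0, 4, 5 and 7) and called 541, 340 and 51 genes for the Ifitm5, Hand2 and Pappa2 gates against Ibsp, where the fit without the block called 192, 168 and 20. For these 3 comparisons the DESeq2 Wald test called 675, 444 and 205 genes, the sums of the compared gates alone 467, 309 and 63 and cells past several cuts kept in each gate 5, 38 and 2. Thinned sums gave 119 for Ifitm5, the lower cut gave 106 for Hand2, and for Pappa2 the higher cut gave 41, the cells without the highest Scrublet scores 31 and sums of at least 5 cells, chosen after seeing the data, 105. Member calls became 1 for Ifitm5 and 1 for Hand2 with the compared gates alone and 1 for Pappa2 with sums of at least 5 cells. Leaving out 1 library gave 0 to 559 genes for Ifitm5, 8 to 144 for Hand2, 0 for Pappa2, 298 to 473 for Rgs5 (777 with all), 1464 to 1856 for Pecam1 (2431) and 4004 to 6977 for Krt14 (6849), and 0 to 1, 0 to 1, 0, 2 to 3, 3 to 5 and 5 to 6 members. Leaving out P15 removed the Pappa2, Rgs5 and Pecam1 gates, so no value was had.

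Sema3e between the Ifitm5 and Ibsp gates ranged from 2.68, with cells past several cuts kept in each gate, to 5.46. From P15 to 8 weeks 229 of 252 ratios kept their side of 2-fold, 22 did not and 1 reversed, Sema3d in the Hand2 gate at -0.42 on the log2 scale with cells past several cuts kept in each gate. Members past 2-fold became 1 in the Ifitm5 gate at the higher cut, 4 in the Hand2 gate at the lower cut and 3 in the Krt14 gate without the highest Scrublet scores. Shares of Ifitm5-gated cells with Sema3e were 6.16%, 8.17% and 8.03% thinned to 2000 UMIs, 15.03% and 17.6% at P15 and P25 thinned to 5000, and 28.0%, 47.3% and 28.5% without thinning. Of the other members' shares 50 of 72 left their interval. Under 20 cells a gate holds few UMIs of a member, so levels of the Pappa2, Rgs5 and Pecam1 gates at P25 and 8 weeks rest on wide intervals. The cause of these shifts was not tested.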
